A study of Caenorhabditis elegans with 6 samples.

Results

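The genes described here encode enzymes that make and remove the lipid messenger diacylglycerol, and the receptor for the messenger made with it, in the nematode Caenorhabditis elegans after X-irradiation. They were chosen by name in the deposited gene table: the phospholipase C genes plc-1, plc-3, plc-4 and egl-8, the diacylglycerol kinase genes dgk-1 to dgk-5, and the inositol 1,4,5-trisphosphate (IP3) receptor gene itr-1. They make up 10 of 45292 listed genes, and 9 of them are among the 14417 genes with enough counts to be tested. The exception is dgk-3.

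Whole-worm total RNA was sequenced from young adult hermaphrodites, irradiated about 24 h after the L4 larval stage in a group of about 1000 animals. X-rays came from a linear accelerator, and the doses were 0, 200 and 400 gray (Gy), with 2 libraries each. The labels give neither the strain, nor how long after irradiation the worms were taken, nor whether the pair of libraries at each dose stem from separately grown worms. The p-values therefore speak only of library-to-library spread, possibly technical. All worms shared the same culture medium and stage, and the 0 Gy worms are the unirradiated controls of both irradiated groups.

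Phospholipase C cuts the membrane lipid phosphatidylinositol 4,5-bisphosphate into IP3 and diacylglycerol. IP3 opens a calcium channel of the endoplasmic reticulum, the IP3 receptor, while diacylglycerol recruits proteins such as protein kinase C and the synaptic vesicle priming protein UNC-13. Diacylglycerol kinase ends that signal by turning diacylglycerol into phosphatidic acid. In the worm, the phospholipase C-beta EGL-8 acts below the G protein Gq at synapses, where the kinase DGK-1 opposes it, and IP3 signalling drives the contractions of ovulation and defecation.

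The libraries held from 9554479 to 12315765 gene counts. They differed in how counts fell on short and long genes. A library's log2 deviation from the mean changed with log2 coding length by a slope of 0.0693 and 0.0523 in the 0 Gy libraries, -0.284 and -0.534 in the 200 Gy libraries, and 0.418 and 0.278 in the 400 Gy libraries. Every library stood with its own dose, so the trend with length cannot be told apart from dose. Counts on the ribosomal RNA gene rrn-3.1 made up between 0.694% and 9.24% of the total. Genes that mark neurons, intestine, germline, sperm, body wall muscle, pharynx and hypodermis were found in all 6 libraries. The exceptions were the intestinal gene mtl-2, at 0 in every library, and 1 pharynx marker, ceh-22, at 0 in 1 library. The summed markers of 4 tissues were higher in all irradiated libraries than in both 0 Gy libraries. The sums were 3629 to 4616 RPKM against 1848 and 2491 RPKM for body wall muscle (9 markers), 2046 to 3806 RPKM against 1073 and 1346 RPKM for hypodermis (7), 48.8 to 157 RPKM against 33.0 and 40.6 RPKM for pharynx (6), and 42.8 to 211 RPKM against 31.2 and 40.6 RPKM for sperm (9). The single markers did not all rise. Of the 7 hypodermis markers 6 had log2 fold changes below 0 at 200 Gy against 0 Gy, with a median of -1.69. At 400 Gy against 0 Gy 5 of the 7 lay below 0. Of the tested markers, 3 of 9 for body wall muscle, 3 of 9 for sperm and 1 of 5 for pharynx lay below 0 at 200 Gy. These tissues had 0 markers below 0 at 400 Gy against 0 Gy. The part of the 4 tissues in the results below was not tested. Of the 9 tested genes, 7 lie in the longest decile of tested genes by coding length, at 2634 bases or more, and the shortest is dgk-2 with 1661 bases. Levels are in RPKM, the read count divided by coding length and library total. A log2 fold change comes with ± its standard error (SE) and rests on counts scaled by edgeR's TMM method, which weighs libraries by their common genes.

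At 200 Gy, 5 of the 9 tested genes fell relative to 0 Gy and 0 rose, by the quasi-likelihood test of edgeR, with p adjusted by Benjamini-Hochberg over all tested genes and a threshold of 0.05. Among all tested genes 8.71% fell and 7.03% rose. The 5 were itr-1, plc-1, dgk-1, plc-3 and plc-4, with log2 fold changes from -2.35 to -1.48. Leaving out either 0 Gy library left 0 genes called, among the 9 and among all genes tested. Without the first 400 Gy library 3 of the 9 were called, where 5.32% of all tested genes fell, and without the first 200 Gy library 8 were, where 18.3% fell. No gene of the 9 was called at 400 Gy against 0 Gy, where 0.0416% of all tested genes rose and 0.00694% fell. With the first or the second 200 Gy library left out, 5 of the 9 were called there, where 10.6% and 11.3% of all tested genes rose. Between the irradiated groups, 8 of 9 rose and 0 fell at 400 Gy against 200 Gy, where 15% of all tested genes rose and 16.2% fell. The median over the 9 genes was -1.49 on the log2 scale at 200 Gy against 0 Gy, 1.06 at 400 Gy against 0 Gy and 2.32 at 400 Gy against 200 Gy, beside 0.099, -0.035 and -0.10 over all tested genes. The 3 comparisons share libraries, so they are not independent of each other. A test of any difference among the 3 doses called 7 of 9, with 30.1% of all tested genes called. Fewer of the 9 were called without the first 400 Gy library, but calls over all tested genes were not counted for that fit.

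The same pattern ran through long genes in general. In the longest decile, leaving aside the genes described here, 36.1% fell at 200 Gy against 0 Gy and 72.8% rose at 400 Gy against 200 Gy. A fit that removed the trend with length from each library, called length-corrected below, left 0 of the 9 genes called at 200 Gy against 0 Gy and 0 at 400 Gy against 0 Gy. For 400 Gy against 200 Gy it left 1, dgk-2, which was lower. The medians of the 9 genes were then -0.33, -0.085 and 0.42 in the same order, beside 0.099, -0.084 and -0.096 over all tested genes. With the correction 2.14% of all tested genes rose and 2.23% fell at 200 Gy against 0 Gy, 1.18% rose and 0.603% fell at 400 Gy against 0 Gy, and 2.05% rose and 3.07% fell at 400 Gy against 200 Gy. For any difference among doses it called 0 of 9, with 10.1% of all tested genes called.

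**Figure D1:**
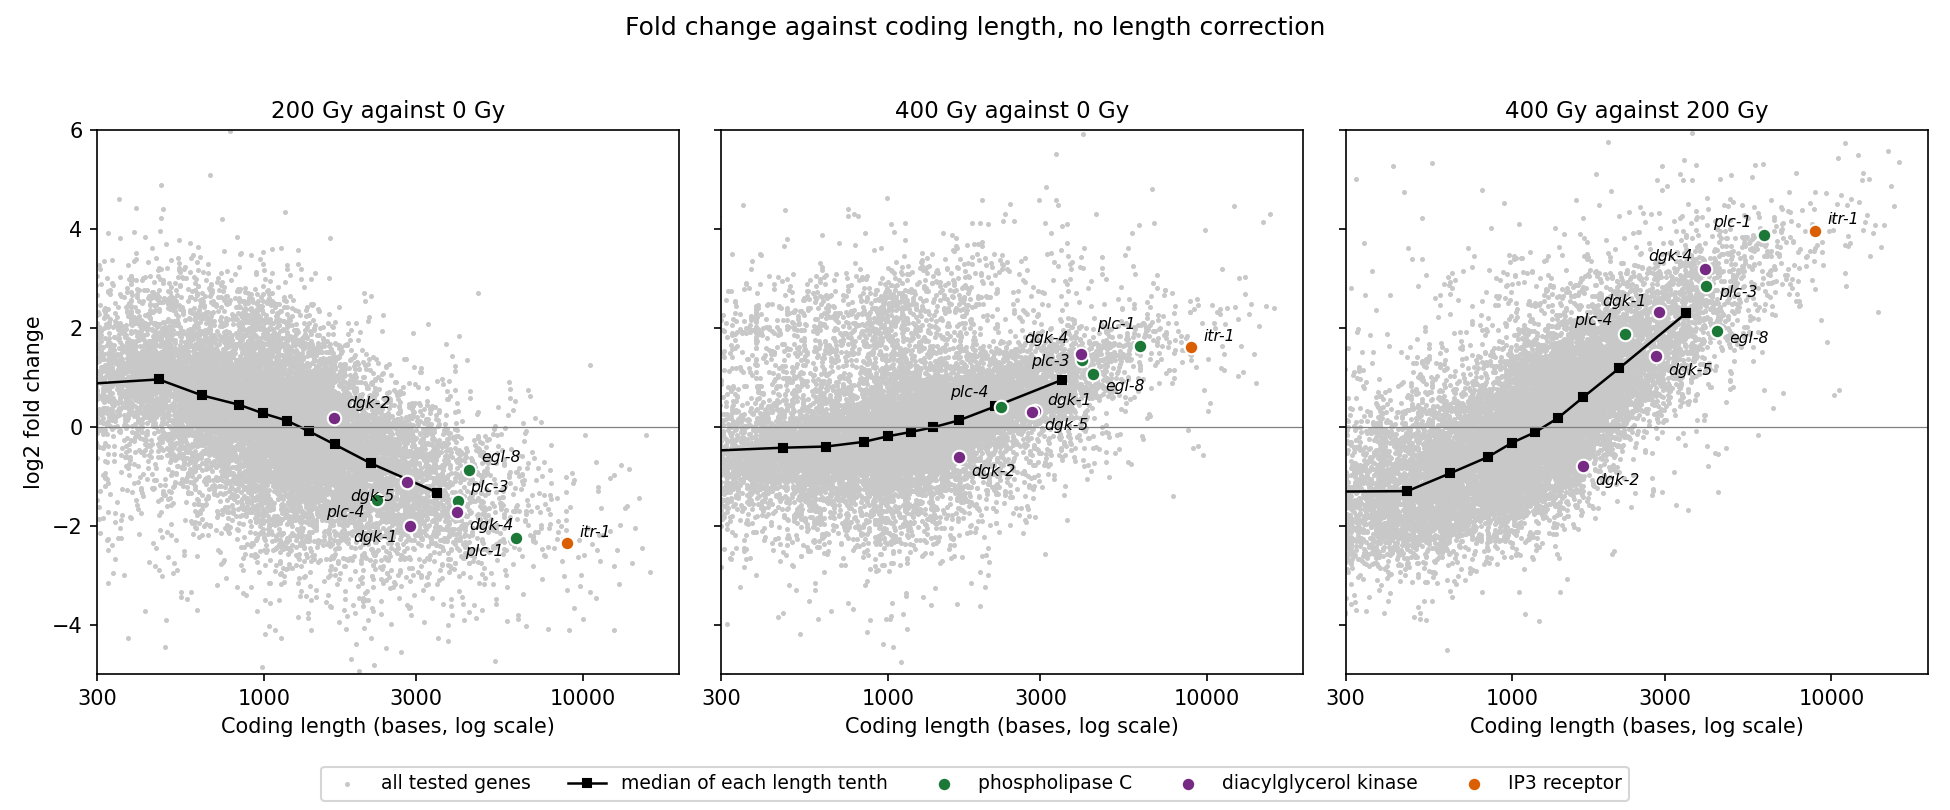
Log2 fold change (vertical axis) against coding length in bases (horizontal axis, log scale) for all tested genes in grey and the 9 named genes in colour, one panel per comparison; the black line joins the medians of deciles of genes by length, and genes beyond the axes are not drawn. The named genes other than dgk-2 lie where long genes lie, low at 200 Gy against 0 Gy and high at 400 Gy against 200 Gy, and dgk-2 lies below the line at 400 Gy against 200 Gy.

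Among the phospholipase C genes, plc-4 (chromosome IV, 7509678 to 7512661, minus strand; WBcel235) had the highest level at each dose. It encodes a phospholipase C of the delta class. Its level was 23.9 and 36.1 RPKM at 0 Gy, 6.77 and 8.09 RPKM at 200 Gy, and 32.0 and 31.4 RPKM at 400 Gy. The 200 Gy libraries lay below all the others, and the 400 Gy libraries lay between the 0 Gy ones. The log2 fold change was -1.48 ± 0.32 at 200 Gy against 0 Gy (edgeR adjusted p = 0.0278), 0.40 ± 0.31 at 400 Gy against 0 Gy (adjusted p = 0.464) and 1.89 ± 0.33 at 400 Gy against 200 Gy (adjusted p = 0.0060). With 2256 bases, plc-4 is just short of the longest decile. Among 850 genes within 10% of its length the median was -0.76 at 200 Gy against 0 Gy, and 24.2% of them lay below plc-4. The length-corrected change there was -0.64 ± 0.35 (adjusted p = 0.270). Counts on the genes R05G6.5 and R05G6.18, whose exons overlap those of plc-4 on the other strand, ran from 3 to 31 per library, and the labels name no stranded kit, so reads of the strands may not be separated.

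The phospholipase C-beta gene egl-8 (chromosome V, 21007 to 43170, plus strand) was next in level. It stood at 11.2 and 15.3 RPKM at 0 Gy, at 4.94 and 4.95 RPKM at 200 Gy, and at 22.3 and 21.97 RPKM at 400 Gy. The 3 doses did not overlap, with 200 Gy lowest and 400 Gy highest. At 200 Gy against 0 Gy the log2 fold change of -0.88 ± 0.32 missed the threshold (edgeR adjusted p = 0.0871), and it was 1.06 ± 0.32 at 400 Gy against 0 Gy (adjusted p = 0.121). Against 200 Gy, egl-8 rose at 400 Gy by 1.94 ± 0.32 (adjusted p = 0.00562). Of the phospholipase C genes egl-8 was the one whose change at 200 Gy was smaller in size than the median of 217 genes of similar length, -1.41. With the length correction it stood at 0.57 ± 0.34 at 200 Gy against 0 Gy (adjusted p = 0.298) and at -0.66 ± 0.34 at 400 Gy against 200 Gy (adjusted p = 0.247), both with the sign turned round and neither called. For 400 Gy against 0 Gy it was -0.085 ± 0.34 (adjusted p = 0.929).

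The phospholipase C-gamma gene plc-3 (chromosome II, 10222878 to 10229067, plus strand), needed for ovulation, had 3.20 and 3.40 RPKM at 0 Gy, 0.852 and 0.762 RPKM at 200 Gy, and 6.11 and 7.52 RPKM at 400 Gy. Replicates lay close together and the doses did not overlap. It fell by 1.49 ± 0.36 on the log2 scale at 200 Gy against 0 Gy (edgeR adjusted p = 0.0346) and rose by 2.85 ± 0.37 at 400 Gy against 200 Gy (adjusted p = 0.0033). The change of 1.36 ± 0.34 at 400 Gy against 0 Gy was not called (adjusted p = 0.102). The 280 genes of similar length had a median of -1.49 at 200 Gy against 0 Gy, with 50.0% of them below plc-3, and a median of 2.51 at 400 Gy against 200 Gy, with 65.4% below it. Length-corrected values were -0.12 ± 0.37 at 200 Gy against 0 Gy (adjusted p = 0.860) and 0.42 ± 0.37 at 400 Gy against 200 Gy (adjusted p = 0.497).

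The phospholipase C-epsilon gene plc-1 (chromosome X, 10795070 to 10814144, minus strand) acts in the spermatheca, the pouch that takes up the oocyte at ovulation. Its level was 1.33 and 2.55 RPKM at 0 Gy, 0.204 and 0.369 RPKM at 200 Gy, and 4.67 and 4.98 RPKM at 400 Gy. The 200 Gy values rest on 12 and 25 reads, against 84 and 156 reads at 0 Gy. The doses did not overlap. It fell by 2.24 ± 0.45 on the log2 scale at 200 Gy against 0 Gy (edgeR adjusted p = 0.0251) and rose by 3.88 ± 0.47 at 400 Gy against 200 Gy (adjusted p = 0.00321), and the change of 1.64 ± 0.41 at 400 Gy against 0 Gy was not called (adjusted p = 0.0995). Among 179 genes within 20% of its length, a wider range taken because few genes are as long, the medians were -1.60, 1.62 and 3.17 for 200 Gy against 0 Gy, 400 Gy against 0 Gy and 400 Gy against 200 Gy. Of these genes 45.3% fell at 200 Gy against 0 Gy and 92.2% rose at 400 Gy against 200 Gy. The length-corrected change was -0.45 ± 0.49 at 200 Gy against 0 Gy (adjusted p = 0.575) and 0.60 ± 0.49 at 400 Gy against 200 Gy (adjusted p = 0.464).

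**Figure D2:**
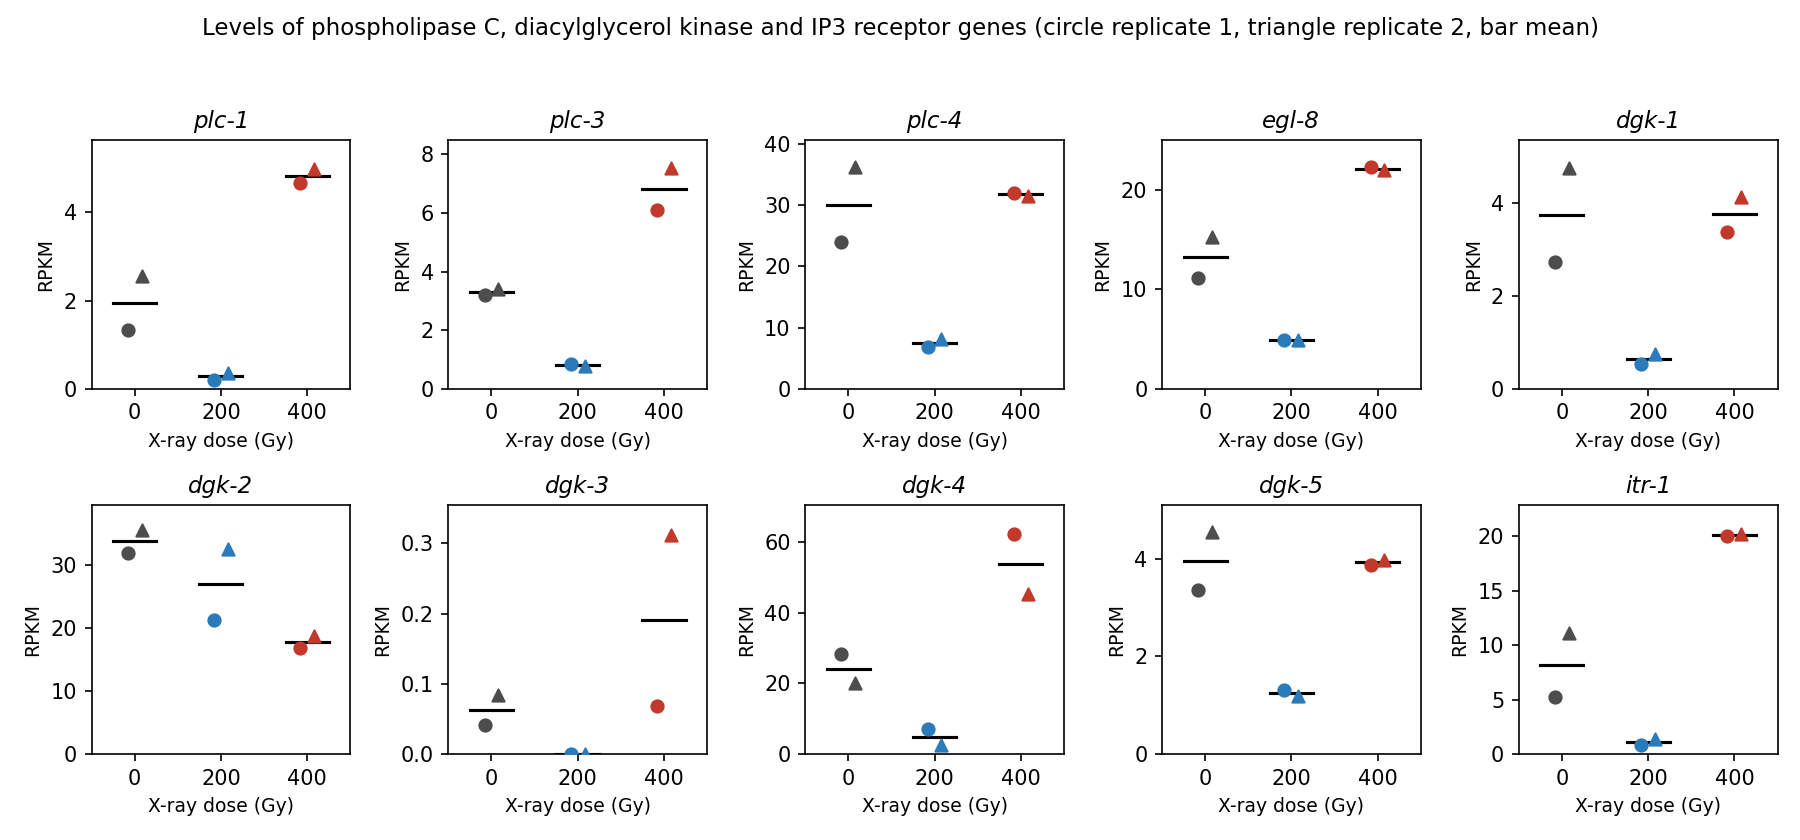
RPKM (vertical axes, from 0, each panel with its own range) by X-ray dose in Gy (horizontal axes) for each of the 10 genes, with circles for replicate 1, triangles for replicate 2 and bars for the mean of 2 libraries. In plc-1, plc-3, egl-8, dgk-4 and itr-1 all 200 Gy values lie below all 0 Gy values and these below all 400 Gy values, while dgk-2 has its lowest values at 400 Gy.

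The IP3 receptor gene itr-1 (chromosome IV, 7675174 to 7696703, plus strand) is the longest of the genes, with 8892 bases. It had 5.26 and 11.1 RPKM at 0 Gy, 0.871 and 1.38 RPKM at 200 Gy, and 19.99 and 20.2 RPKM at 400 Gy. The 2 libraries at 400 Gy were nearly alike, and the 2 at 0 Gy were far apart. In RPKM its highest value was 23.2 times its lowest, against 24.4 times for plc-1 and 23.0 times for dgk-4. The TMM-scaled counts do not keep that order. The gene itr-1 fell by 2.35 ± 0.42 on the log2 scale at 200 Gy against 0 Gy (edgeR adjusted p = 0.0229) and rose by 3.97 ± 0.45 at 400 Gy against 200 Gy (adjusted p = 0.00294), the change of largest size among the 9 genes in each of these comparisons. For 400 Gy against 0 Gy it was 1.62 ± 0.40 (adjusted p = 0.0995). Of the 190 genes within 40% of its length, 50.5% fell at 200 Gy against 0 Gy and 94.7% rose at 400 Gy against 200 Gy, with medians of -1.69 and 3.52. The length-corrected changes were -0.33 ± 0.44 at 200 Gy against 0 Gy (adjusted p = 0.654) and 0.093 ± 0.44 at 400 Gy against 200 Gy (adjusted p = 0.912). An antisense RNA gene at itr-1 exons, F33D4.12, had 13 and 15 counts in the 0 Gy libraries, 0 and 2 in the 200 Gy libraries, and 41 and 31 in the 400 Gy libraries, and with no stranded kit or strand setting named, these reads may not be separable from those of itr-1.

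Among the diacylglycerol kinase genes dgk-2 (chromosome X, 4495226 to 4504098, minus strand) went its own way. Its level was 31.8 and 35.5 RPKM at 0 Gy, 21.3 and 32.5 RPKM at 200 Gy, and 16.8 and 18.6 RPKM at 400 Gy. The 400 Gy libraries lay below the other 4, and the 200 Gy and 0 Gy libraries overlapped. On the TMM-scaled counts the picture at 200 Gy differed, with 47.1 and 57.2 CPM (TMM-scaled count relative to library size) at 200 Gy and 44.5 and 47.6 CPM at 0 Gy, also overlapping, while 400 Gy had 30.04 and 30.1 CPM. The log2 fold change was 0.18 ± 0.29 at 200 Gy against 0 Gy (edgeR adjusted p = 0.679), -0.61 ± 0.29 at 400 Gy against 0 Gy (adjusted p = 0.247) and -0.79 ± 0.29 at 400 Gy against 200 Gy (adjusted p = 0.0697), so none was called. Leaving out the second 200 Gy library turned the first of these to -0.067.

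Most genes of dgk-2's length did not move that way. Among 1384 genes within 10% of its length the median at 400 Gy against 200 Gy was 0.54 and the lower quartile -0.10, and 7.08% of them lay below dgk-2. With the length correction dgk-2 fell by 1.42 ± 0.34 on the log2 scale at 400 Gy against 200 Gy (edgeR adjusted p = 0.0443), where the median of those genes was -0.054 and 6.29% of them lay below it. The call was kept in 1 of 6 fits that also left out a library, the one without the first 200 Gy library (-1.61, adjusted p = 0.0106). In the other 5 the change ran from -1.47 to -1.19 with adjusted p from 0.0795 to 0.195. The length-corrected change at 400 Gy against 0 Gy was -0.81 ± 0.33 (adjusted p = 0.214). The summed level of the 14 neuron markers was 495 and 652 RPKM at 400 Gy, against 693 and 1059 RPKM at 200 Gy, with no marker at 0. Most of each of these sums came from the synaptobrevin gene snb-1, a value that was singled out after it was seen, with 295 and 361 RPKM at 400 Gy against 543 and 832 RPKM at 200 Gy. Of the 14 markers 10 had log2 fold changes above 0 at 400 Gy against 200 Gy, with 3 called higher, 1 called lower and a median of 0.54. With the length correction 0 were called higher and 0 lower, where 2.05% of all tested genes rose and 3.07% fell, and the median was 0.065. The summed levels are not length-corrected, and at 0 Gy they were 800 and 854 RPKM. The part of neurons in the dgk-2 difference was not tested. In whole-worm RNA, fewer cells of a type and less RNA per cell cannot be told apart.

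The kinase gene dgk-4 (chromosome IV, 8631433 to 8643317, plus strand) had 28.2 and 19.99 RPKM at 0 Gy, 7.004 and 2.71 RPKM at 200 Gy, and 62.3 and 45.2 RPKM at 400 Gy. The doses did not overlap, though replicates differed widely, above all at 200 Gy. Its change at 200 Gy against 0 Gy, -1.71 ± 0.56, and that at 400 Gy against 0 Gy, 1.48 ± 0.55, missed the threshold (edgeR adjusted p = 0.0695 and 0.173). Against 200 Gy it rose at 400 Gy by 3.19 ± 0.59 (adjusted p = 0.00742), where the 291 genes of similar length had a median of 2.499 and 81.1% of them lay below it. The length-corrected change, 0.89 ± 0.44, was the highest value among the 9 genes in that comparison but was not called (adjusted p = 0.228).

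The synaptic kinase gene dgk-1 (chromosome X, 984635 to 991235, minus strand), the worm counterpart of the theta class, had 2.74 and 4.76 RPKM at 0 Gy, 0.545 and 0.757 RPKM at 200 Gy, and 3.38 and 4.14 RPKM at 400 Gy. The 200 Gy libraries lay lowest, on 15 and 24 reads against 81 and 136 reads at 0 Gy, and the others overlapped. It fell by 2.00 ± 0.45 on the log2 scale at 200 Gy against 0 Gy (edgeR adjusted p = 0.0296) and rose by 2.32 ± 0.45 at 400 Gy against 200 Gy (adjusted p = 0.00837), with 0.32 ± 0.41 at 400 Gy against 0 Gy (adjusted p = 0.669). The fall at 200 Gy exceeded in size the median of 551 genes of similar length, -1.11, with 15.2% of them below dgk-1. With the length correction it was -0.87 ± 0.47, the lowest value among the 9 genes in that comparison, and not called (adjusted p = 0.252). Exons of C09E10.3 overlap those of dgk-1 on the same strand. No counts were found for C09E10.3 under that name, so how reads shared by these genes were counted is unknown.

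Another kinase gene, dgk-5 (chromosome II, 6456857 to 6467637, minus strand), had 3.36 and 4.54 RPKM at 0 Gy, 1.30 and 1.19 RPKM at 200 Gy, and 3.87 and 3.97 RPKM at 400 Gy. The 200 Gy libraries again lay lowest. Of the 4 tested kinase genes it stayed closest to genes of its length, with -1.12 ± 0.40 at 200 Gy against 0 Gy beside a median of -1.05, and 1.43 ± 0.40 at 400 Gy against 200 Gy beside a median of 1.68 over 567 genes. The second of these was called (edgeR adjusted p = 0.0303) and the first was not (adjusted p = 0.0856), and the call was kept in 1 of 6 fits with a library left out, that without the first 200 Gy library (1.88, adjusted p = 0.0155). For 400 Gy against 0 Gy dgk-5 stood at 0.31 ± 0.39 (adjusted p = 0.663). The length-corrected values were -0.059 ± 0.39 (adjusted p = 0.938) and -0.30 ± 0.39 (adjusted p = 0.659).

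The kinase gene dgk-3 (chromosome III, 9163077 to 9168027, plus strand), known from sensory neurons, was barely detected, with 1 and 2 reads in the 0 Gy libraries, 0 in both 200 Gy libraries, and 2 and 8 in the 400 Gy libraries. A count of 0 allows up to 3 reads, here 0.131 and 0.114 RPKM in the 200 Gy libraries, which is above the 0.0408 and 0.0843 RPKM measured at 0 Gy, so no difference was detectable at this depth. These limits cover counting error only. Its exons overlap those of ina-1 on the other strand, which held 148 to 1013 counts.

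**Figure D3:**
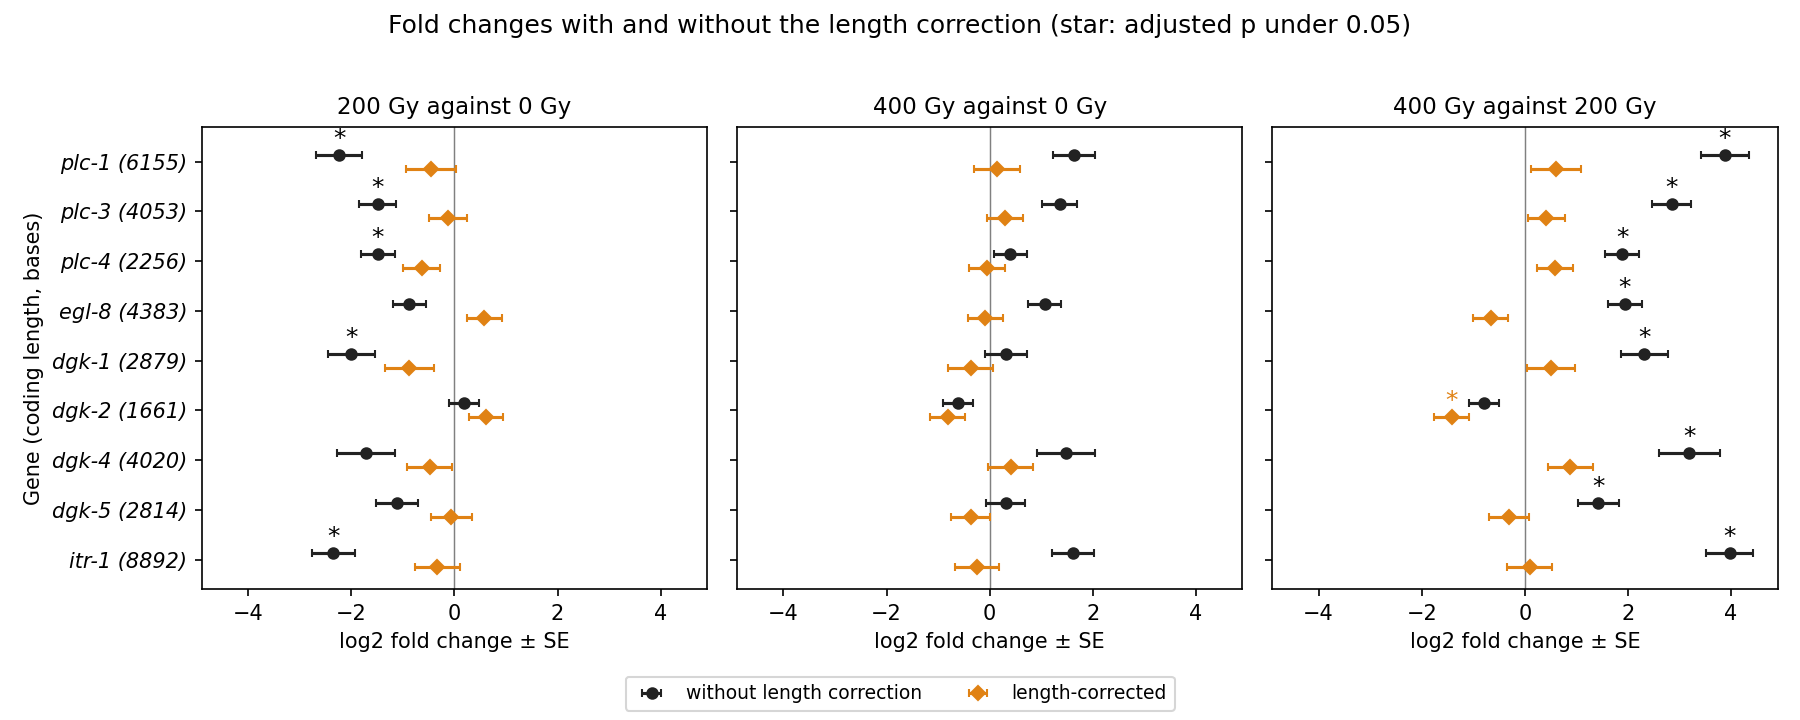
Log2 fold changes ± SE (horizontal axes) of the 9 tested genes (rows, with coding length in bases) for each comparison over 2 libraries per dose, without the length correction (black circles) and with it (orange diamonds); stars mark adjusted p under 0.05 by edgeR. Without the correction 5 genes fell at 200 Gy against 0 Gy and 8 rose at 400 Gy against 200 Gy, and with it the one star is that of dgk-2.

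Libraries were also compared directly, without a test. At 200 Gy against 0 Gy, both 200 Gy libraries lay below both 0 Gy libraries in 8 of 9 genes on the log2 CPM scale, where 29.9% of all tested genes did so. Both 400 Gy libraries lay above both 0 Gy libraries in 7 genes and below in 1, dgk-2, where 28.1% and 31.1% of all tested genes did so. Set against 200 Gy, both lay above in 8 and below in 1, again dgk-2, where 31.1% and 34.6% did so. The full order, 200 Gy lowest, then 0 Gy, then 400 Gy with no overlap, was seen on this TMM-scaled measure in 7 of 9 genes, in 8.96% of all tested genes and in 50.3% of the other genes of the longest decile. In RPKM, plc-4 and dgk-5 are not in that order, since their 0 Gy and 400 Gy libraries overlap. After the median of genes of similar length was subtracted in each library, the libraries overlapped in 7 of 9 genes at 200 Gy against 0 Gy, in 6 at 400 Gy against 0 Gy and in 3 at 400 Gy against 200 Gy. On the same measure the libraries of 44.4%, 48.9% and 46.9% of all tested genes overlapped in these comparisons. The 400 Gy libraries then lay above the 200 Gy ones for plc-3, plc-4 and dgk-4, and below them for egl-8, dgk-2 and dgk-5, as they did in 26.5% and 26.7% of all tested genes.

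**Figure D4:**
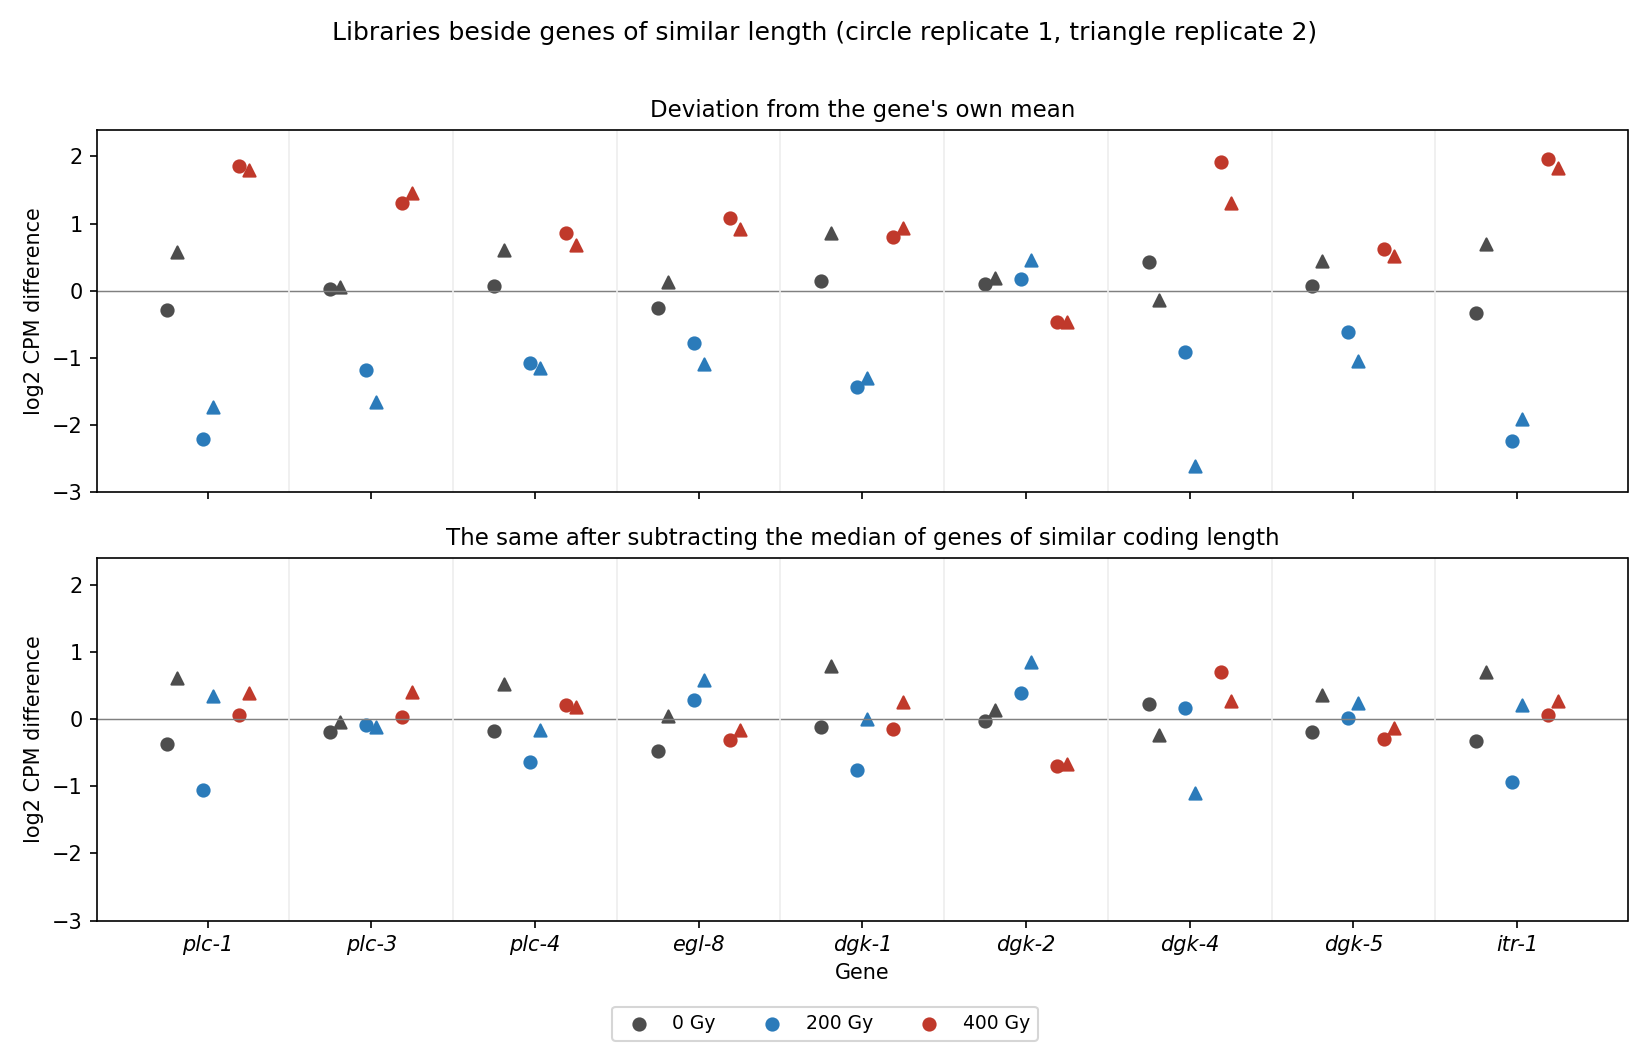
Log2 CPM of each library relative to the gene's own mean (upper panel) and after subtracting the median of genes of similar coding length in that library (lower panel), for the 9 tested genes, with circles for replicate 1, triangles for replicate 2 and colours for dose. The wide separation of doses in the upper panel shrinks in the lower one for the genes other than dgk-2. In the lower panel 7 of 9 genes have overlapping 200 Gy and 0 Gy libraries. The 400 Gy libraries of dgk-2 lie at -0.47 and -0.46 in the upper panel and at -0.70 and -0.67 in the lower one.

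The make-up of the 2 enzyme families shifted in step with these changes. Of the summed RPKM of the 4 phospholipase C genes, plc-4 held 60.4% and 63.0% in the 0 Gy libraries, 53.0% and 57.1% in the 200 Gy libraries, and 49.2% and 47.7% in the 400 Gy libraries. For egl-8 the shares were 28.2% and 26.6% in the 0 Gy libraries, which were lowest, 38.7% and 34.9% in the 200 Gy libraries, and 34.3% and 33.3% in the 400 Gy libraries. The sum itself was 39.6 and 57.3 RPKM at 0 Gy, 12.8 and 14.2 RPKM at 200 Gy, and 65.1 and 65.9 RPKM at 400 Gy. Among the kinase genes, dgk-2 held 48.1% and 54.7% in the 0 Gy libraries, 70.6% and 87.4% in the 200 Gy libraries, and 19.4% and 25.8% in the 400 Gy libraries. The share of dgk-4 ran the other way, with 42.6% and 30.8% in the 0 Gy libraries, 23.2% and 7.30% in the 200 Gy libraries, and 72.1% and 62.6% in the 400 Gy libraries. Shares of dgk-2 and dgk-4 did not overlap between any of the 3 doses. They come from genes of different length and carry the trend with length too. Shares of a sum are not independent, so a larger dgk-2 share leaves less for dgk-4.

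**Figure D5:**
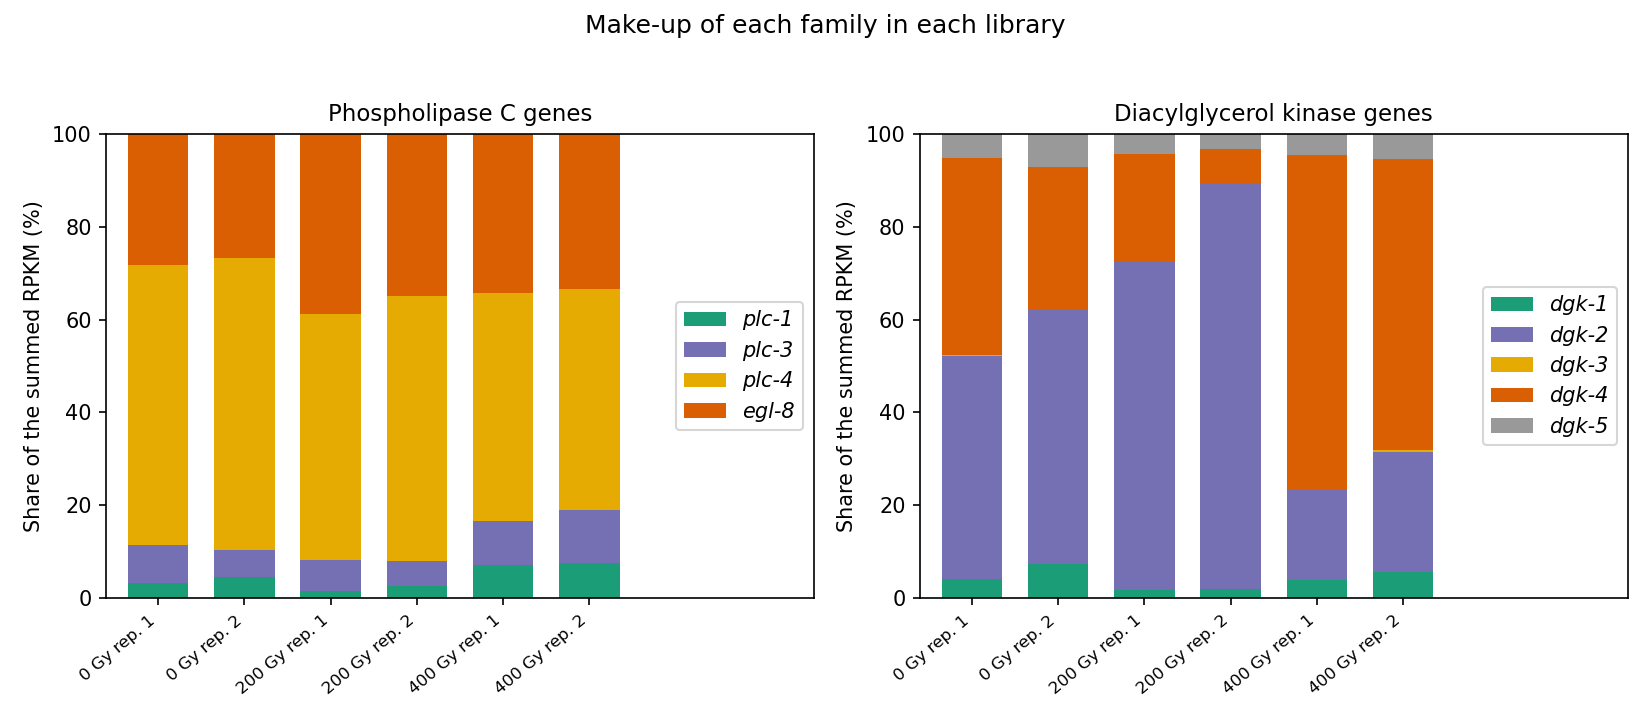
Share of the summed RPKM (vertical axis, percent) held by each gene of the phospholipase C family (left) and the diacylglycerol kinase family (right) in each of the 6 libraries. The dgk-2 share is 70.6% and 87.4% in the 200 Gy libraries and 19.4% and 25.8% in the 400 Gy libraries, and dgk-4 takes most of the rest.

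The order of mean levels per length changed with dose. At 0 Gy the order was dgk-2, plc-4, dgk-4, egl-8, itr-1, dgk-5, dgk-1, plc-3, plc-1 and dgk-3, from 33.7 RPKM down to 0.0626 RPKM. Neighbours among the first 3 genes overlapped, as did dgk-5 with dgk-1 and dgk-1 with plc-3. At 200 Gy dgk-2 led with 26.9 RPKM, above plc-4 with 7.43 RPKM, and egl-8 and dgk-4 overlapped, as did dgk-5 and itr-1. At 400 Gy dgk-4 led with 53.7 RPKM, followed by plc-4, egl-8, itr-1 and dgk-2, and only dgk-5 and dgk-1 overlapped as neighbours. With 2 libraries per dose, such an overlap or its absence is a description of these libraries.

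Across the 6 libraries the genes other than dgk-2 varied together in log2 CPM, with Pearson correlations from 0.829 (dgk-1 with dgk-4) to 0.999 (plc-1 with itr-1). The correlations of dgk-2 with the other 8 ran from -0.937 to -0.707. The libraries differ by dose and by the trend with length, which all pairs share. The genes most like itr-1 among 9837 genes with a mean of at least 5 CPM were fln-2, which encodes a filamin, F11C1.5 and plc-1, with correlations from 0.9991 to 0.9999, and 352 genes had a correlation above 0.95. For plc-3 they were ver-3, fkh-9 and mig-15, at 0.998 each and with 502 genes above 0.95, and for egl-8 they were F39C12.1, the laminin gamma gene lam-2 and the cation channel gene gon-2, at 0.996 or 0.997 and with 324 genes above 0.95. Of these 8 genes other than plc-1, fkh-9 has the shortest coding length, 903 bases, and F39C12.1 the longest, 15318 bases.

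A pair of further phospholipase C genes was looked at beside them. The gene plc-2 had 3.84 and 4.34 RPKM at 0 Gy, 2.53 and 3.44 RPKM at 200 Gy, and 9.44 and 11.98 RPKM at 400 Gy. It rose by 1.64 ± 0.33 at 400 Gy against 200 Gy (edgeR adjusted p = 0.00915), with -0.044 ± 0.37 after the length correction (adjusted p = 0.954). The gene pll-1 was not called in any of the 3 comparisons.

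Of 15 genes that feed into phospholipase C, G protein subunits, their regulators, receptors and the epidermal growth factor pathway, 4 fell at 200 Gy against 0 Gy, and 6 rose and 1 fell at 400 Gy against 200 Gy. These are 26.7%, 40% and 6.67% of the list, beside 8.71%, 15% and 16.2% of all tested genes. Over the list the median change was -0.89 on the log2 scale at 200 Gy against 0 Gy and 1.33 at 400 Gy against 200 Gy, beside 0.099 and -0.10 over all tested genes. The guanine nucleotide exchange factor gene unc-73, whose product acts below Gq, rose by 2.54 ± 0.36 at 400 Gy against 200 Gy (edgeR adjusted p = 0.00395), the epidermal growth factor receptor gene let-23 by 2.73 ± 0.44 (adjusted p = 0.00536) and egl-10, a regulator of Go, by 1.57 ± 0.36 (adjusted p = 0.0150). Without the first 400 Gy library the egl-10 call was lost (1.71, adjusted p = 0.0551). The one that fell was gpc-2, a G protein gamma subunit gene of 189 bases, with 97.1 and 162 RPKM at 400 Gy against 245 and 339 RPKM at 200 Gy (-1.39 ± 0.34, adjusted p = 0.0177). That call was lost when a 400 Gy library was left out, with changes from -1.52 to -1.13 over the 6 fits. With the length correction 0 of 15 were called in any of the 3 comparisons.

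Of 8 genes listed as effectors of diacylglycerol and vesicle release, 3 fell at 200 Gy against 0 Gy and 4 rose at 400 Gy against 200 Gy, with list medians of -1.39 and 1.17. These are 37.5% and 50% of the list, beside 8.71% and 15% of all tested genes. The 4 were the priming factor gene unc-13 (3.55 ± 0.54, edgeR adjusted p = 0.00453), the dense core vesicle release gene unc-31 (3.29 ± 0.53, adjusted p = 0.00545) and the protein kinase C genes pkc-1 (2.23 ± 0.44, adjusted p = 0.00873) and tpa-1 (0.94 ± 0.30, adjusted p = 0.0445). Each of these lost its call with the length correction. The tpa-1 call was also lost in each of the 6 fits that left out a library, and that of pkc-1 without the first 400 Gy library (2.035, adjusted p = 0.0563). A conventional protein kinase C gene, pkc-2, was called with the correction and not without it. It had 25.3 and 28.3 RPKM at 200 Gy, against 15.2 and 28.9 RPKM at 0 Gy, so the libraries overlapped in RPKM. The TMM factors were 1.19 and 1.241 at 0 Gy and 0.7511 and 0.9447 at 200 Gy. On the TMM-scaled counts, on which the fold changes rest, the libraries did not overlap. Its length-corrected change was 1.97 ± 0.41 (adjusted p = 0.0383), beside 0.82 ± 0.37 without the correction (adjusted p = 0.148). At 400 Gy it had 30.2 and 38.4 RPKM, and against 200 Gy the length-corrected change was -1.76 ± 0.41 (adjusted p = 0.0418), beside 0.14 ± 0.37 without it (adjusted p = 0.796). Both pkc-2 calls were lost when a 0 Gy or a 400 Gy library was left out.

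Of 19 enzymes of phosphoinositide and inositol phosphate metabolism, 2 fell at 200 Gy against 0 Gy, and 7 rose and 2 fell at 400 Gy against 200 Gy, with list medians of -0.58 and 0.62. The 2 that fell at 200 Gy are 10.5% of the list, near the 8.71% of all tested genes, and the 7 and 2 are 36.8% and 10.5%, beside 15% and 16.2%. The lipid kinase gene ppk-3 rose by 2.35 ± 0.44 at 400 Gy against 200 Gy (edgeR adjusted p = 0.00764), and the inositol 5-phosphatase genes ocrl-1 and unc-26 by 1.38 ± 0.31 (adjusted p = 0.0141) and 1.95 ± 0.45 (adjusted p = 0.0150). Without the first 400 Gy library the calls of ppk-3 (2.12, adjusted p = 0.0513), ocrl-1 (1.16, adjusted p = 0.112) and unc-26 (1.67, adjusted p = 0.0891) were lost. With the correction the one call among the 19 was inos-1, the inositol 3-phosphate synthase gene. It had 116 and 96.6 RPKM at 400 Gy, against 227 and 210.5 RPKM at 200 Gy, a length-corrected change of -1.75 ± 0.40 (adjusted p = 0.0408), beside -1.26 ± 0.36 without it (adjusted p = 0.0312). The corrected call was lost when a 0 Gy or a 400 Gy library was left out, with changes between -2.04 and -1.51 over the 6 fits. The call without the correction was lost in 5 of the 6 fits and kept without the second 200 Gy library (-1.34, adjusted p = 0.0288), with changes between -1.49 and -0.815.

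Of 18 genes of the calcium store and calcium signalling, 7 fell and 1 rose at 200 Gy against 0 Gy, and 10 rose and 2 fell at 400 Gy against 200 Gy, with list medians of -0.51 and 1.56. These are 38.9%, 5.56%, 55.6% and 11.1% of the list, beside 8.71%, 7.03%, 15% and 16.2% of all tested genes. Among the rises at 400 Gy against 200 Gy was that of the ryanodine receptor gene unc-68, the other calcium release channel of the store (5.35 ± 0.49, edgeR adjusted p = 0.00243). Its coding length is 16245 bases, and its length-corrected change was 0.64 ± 0.41 (adjusted p = 0.347). Others were the voltage-gated calcium channel gene unc-2 (4.26 ± 0.49, adjusted p = 0.00298) and the TRPM channel genes gtl-1 (3.17 ± 0.37, adjusted p = 0.00309) and gon-2 (3.65 ± 0.43, adjusted p = 0.00311). Each of these lost its call with the length correction, where unc-2 stood at 0.93 (adjusted p = 0.246), gtl-1 at 0.23 (adjusted p = 0.748) and gon-2 at 0.47 (adjusted p = 0.418), and 0 of 18 rose at 400 Gy against 200 Gy. At 200 Gy against 0 Gy unc-2 fell both without the correction (-4.04 ± 0.48, adjusted p = 0.0208) and with it (-2.27 ± 0.48, adjusted p = 0.0383), with levels of 0.127 and 0.137 RPKM at 200 Gy against 2.18 and 4.15 RPKM at 0 Gy. Its 200 Gy levels are low, below the 0.204 and 0.369 RPKM of plc-1, which rest on 12 and 25 reads. The store-operated calcium channel gene orai-1 went the other way. It had 24.8 and 28.0 RPKM at 400 Gy, against 56.5 and 87.1 RPKM at 200 Gy, and its change at 400 Gy against 200 Gy was -1.64 ± 0.31 (adjusted p = 0.00798), and -1.62 ± 0.35 with the length correction (adjusted p = 0.0326). Without the correction the unc-2 call at 200 Gy was lost when a 0 Gy library was left out (-4.40 and -3.56, adjusted p = 0.102 and 0.178), and the orai-1 call when a 400 Gy library was (-1.62 and -1.46, adjusted p = 0.072 and 0.0765). The corrected calls of unc-2 and orai-1 were lost when a 0 Gy or a 400 Gy library was left out, with changes from -2.61 to -1.88 for unc-2 and from -1.74 to -1.52 for orai-1.

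Of 15 genes of ovulation and spermatheca contractility, a list that holds itr-1 and plc-1 as well, 8 fell at 200 Gy against 0 Gy, and 11 rose and 1 fell at 400 Gy against 200 Gy, with list medians of -1.35 and 2.52. These are 53.3%, 73.3% and 6.67% of the list, beside 8.71%, 15% and 16.2% of all tested genes. With the length correction 0 of 15 were called at 200 Gy against 0 Gy, and 1 rose and 0 fell at 400 Gy against 200 Gy. Besides itr-1 and plc-1, the non-muscle myosin gene nmy-1 rose by 3.72 ± 0.47 at 400 Gy against 200 Gy (edgeR adjusted p = 0.00322), and lost its call with the length correction (0.44 ± 0.52, adjusted p = 0.629). In none of these 6 lists was a gene called at 400 Gy against 0 Gy, with or without the correction. At an unadjusted p under 0.05 that comparison held 3244 genes among all tested ones, and the DESeq2 Wald test called 1353 genes there, 3 of the 9 described first among them.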

How the data were processed

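Trizol was used to extract total RNA from whole worms and a TruSeq RNA kit to make the libraries, per the labels' protocols. The tools named in the submitters' processing notes are bcl2fastq and TopHat2 2.0.13, and the build is WBcel235; how reads were counted, with which annotation, strand setting and filters, is not given in the sources used. The authors deposited 1 table with raw read counts and RPKM per gene and library, and gene lengths. Each deposited RPKM equals the count over the length and the library total (largest relative difference 5.1e-06). Of the lengths of tested genes 91.7% are multiples of 3, as are those of 7 of the 10 genes described, so they are called coding lengths. They need not equal an annotated coding sequence. The longest annotated one has 8676 bases for itr-1 (8892 here), 2856 for dgk-1 (2879), 1608 for dgk-2 (1661) and 10662 for plc-1 (6155). For plc-3 it has 4050 bases (4053 here). All 6 count columns matched a sample.

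Tests used edgeR 4.0.16 in R 4.3.3 on the counts as deposited: filterByExpr, TMM scaling (factors from 0.7511 to 1.241), and 1 quasi-likelihood fit over 6 libraries with 3 residual and 5.07 prior degrees of freedom (biological coefficient of variation 35.1%). Adjustment was by Benjamini-Hochberg over all 14417 tested genes. An SE is the log2 fold change over the square root of F. The length correction took a loess trend (span 0.3, degree 1) of log2 CPM deviations (prior count 2) on log2 length out of each library, as offsets. Genes of similar length lie within 10% of a gene's length, a range doubled until it holds 100 genes. Replicates of a dose differed beyond counting noise (chi-square per degree of freedom 44.9, 71.5 and 83.7 at 0, 200 and 400 Gy). The steps were run on simulated data with a smaller spread than these libraries and the same length trend in both libraries of a dose. That run therefore does not show how well the steps work here.

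The genes described and the lists were chosen with earlier results of these data known. Named were all 10 genes, per list up to 4 genes past the threshold by p, and the 3 genes most like each of plc-3, itr-1 and egl-8. List genes called with the length correction were named after their values were seen. Values of 2 list genes that these rules would name are not reported here, while the list counts and medians hold them. Some list genes, such as inpp-1 and gpap-1, were found by their sequence names. Exon overlaps were read from Ensembl release 115. Alternatives were other scalings and filters, the DESeq2 1.42.0 Wald test, the replicate block, only the 4 libraries compared, left-out libraries, other thresholds and a wider length range; a loess of degree 2 and the length correction with a library left out were added after these fits were seen.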

Additional observations from a re-analysis of the deposited data

How the results depend on the processing

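Counts of the 9 tested genes called at 200 Gy against 0 Gy (5) became 8 with the replicate block and 0 with the length correction, with the correction and block, with a loess of degree 2, and at a threshold of 0.01; leaving out a library gave 0 to 8, and 0 in each fit with the correction. For 400 Gy against 0 Gy (0) they became 3 with the DESeq2 Wald test, 5 with the block, 1 with the correction and block, and 5 with only the 4 libraries compared; left-out libraries gave 0 to 5. For 400 Gy against 200 Gy (8) they became 1 with the correction or degree 2, and 3 with the correction and block; left-out libraries gave 7 to 8, and 0 to 1 with the correction. For any difference (7) they became 0 with the correction or degree 2 and 3 with the correction and block; left-out libraries gave 3 to 8, and 0 to 1 with the correction. The DESeq2 test was not run for any difference. Calls over all tested genes were counted for any difference only in the main fit and in that with the correction.

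Over all tested genes, calls at 200 Gy against 0 Gy (2269) became 631 with the correction, 664 with degree 2, 6444 with the block, 4668 with both and 0 at a threshold of 0.01, and 0 to 4708 with a library left out, 1 to 2457 with the correction too. At 400 Gy against 0 Gy (7) they became 257 with the correction, 265 with degree 2, 273 with DESeq2 size factors, 1353 with its Wald test, 230 with no filter, 3586 with the block, 2527 with both, 2145 with the 4 libraries compared and 0 at 0.01, and 0 to 2438 with a library left out, 0 to 2109 with the correction too. At 400 Gy against 200 Gy (4495) they became 739 with the correction, 717 with degree 2, 7640 with the block and 1773 at 0.01, and 1332 to 5837 with a library left out, 0 to 2138 with the correction too. The block rests on replicate numbers that the labels do not tie to a shared batch. Differences between same-numbered libraries correlated at 0.479 between 200 Gy and 0 Gy, 0.375 between 400 Gy and 0 Gy and 0.596 between 400 Gy and 200 Gy, each over genes and with 1 difference per dose. With 2 numbers and no shared batch named, they were not taken as pairs.

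Signs turned with the length correction, given here alone, with the block, and with degree 2. At 200 Gy against 0 Gy, egl-8 stood at 0.575, 0.5755 and 0.5901. At 400 Gy against 0 Gy, plc-4 stood at -0.0499, -0.0195 and -0.0382, egl-8 at -0.0850, -0.071 and -0.0784, dgk-1 at -0.370, -0.326 and -0.359, dgk-5 at -0.363, -0.351 and -0.3506, and itr-1 at -0.237, -0.171 and -0.249. At 400 Gy against 200 Gy, egl-8 stood at -0.660, -0.6465 and -0.6685, dgk-5 at -0.304, -0.3001 and -0.315, plc-2 at -0.0441, -0.0262 and -0.0603, unc-73 at -1.038, -1.039 and -0.983, tpa-1 at -0.235, -0.223 and -0.253, pkc-2 at -1.755, -1.747 and -1.771, ppk-3 at -0.224, -0.211 and -0.230, and unc-26 at -0.0783, -0.0607 and -0.0874; upper-quartile scaling took pkc-2 to -0.0368. The cause of these turns was not tested.

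Over the fits with a library left out, with and without the correction, ranges that crossed 0 were, at 200 Gy against 0 Gy, -2.636 to 0.020 for plc-1, -1.236 to 0.745 for egl-8, -0.0666 to 0.789 for dgk-2, -1.544 to 0.1425 for dgk-5 and -2.771 to 0.0901 for itr-1. At 400 Gy against 0 Gy they were -0.184 to 2.126 for plc-1, -0.304 to 0.678 for plc-4, -0.2505 to 1.256 for egl-8, -0.704 to 0.719 for dgk-1, -0.555 to 0.492 for dgk-5 and -0.564 to 2.203 for itr-1. At 400 Gy against 200 Gy they were -0.793 to 2.325 for egl-8, -0.318 to 1.875 for dgk-5, -0.301 to 4.27 for itr-1, -0.303 to 1.817 for plc-2, -1.059 to 3.163 for unc-73, -0.455 to 4.319 for unc-13, -0.445 to 1.125 for tpa-1, -1.909 to 0.435 for pkc-2, -0.411 to 3.223 for ppk-3, -0.151 to 1.762 for ocrl-1, -0.355 to 2.904 for unc-26, -0.117 to 3.547 for gtl-1 and -0.1315 to 4.384 for nmy-1. The fits that joined the correction with a left-out library, and the loess of degree 2, were chosen after seeing the data.

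Scaling moved the median of all genes. It was 0.195, -0.121 and -0.285 for 200 Gy against 0 Gy, 400 Gy against 0 Gy and 400 Gy against 200 Gy with upper-quartile scaling, and -0.0307, -0.0056 and 0.0594 with ribosomal RNA genes removed, beside 0.0993, -0.0348 and -0.102. With those genes removed 708 of 2167 calls at 200 Gy against 0 Gy were higher, against 1013 of 2269. With upper-quartile scaling dgk-2 was lower at 400 Gy against 200 Gy (-1.001, edgeR adjusted p = 0.04505) and 7 other described genes were higher. Over all 14417 tested genes 1935 were called higher and 2659 lower there, against 2157 and 2338 in the main fit. Few reads limit plc-1 and dgk-1 at 200 Gy and dgk-3 at every dose, and the 200 Gy levels of unc-2 were lower still than those of plc-1. A left-out library leaves its dose with 1 library, which is assumed to vary like the rest.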
